A study of Mus musculus with 64 samples.

Results

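LEF1 and TCF7L1 are members of the TCF/LEF family, the DNA-binding proteins that carry β-catenin to the targets of the WNT pathway. They were compared here in caudal epiblast-like cells (CEpiLC), mouse embryonic stem cells brought to a state that resembles the posterior part of the embryo. The members were the 3 LEF1 and the 3 TCF7L1 libraries of CEpiLC, which makes 6 of 64 samples in the series. They were chosen by the labelled antibody and condition. The labels call the second protein TCF3, an older name of TCF7L1 and also the symbol of another protein, which binds the E-box.

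Both groups came from cells labelled wild-type, strain HM1 (129), which per the study's methods were the HM1 TetON line, which carries the doxycycline-dependent activator rtTA and from which the other lines were made. The cells had been grown for 2 days in N2B27 medium with 10 ng/ml bFGF and 5 µM LGK974, which blocks WNT secretion. CHIR99021, a GSK3 inhibitor that activates the pathway downstream of the receptors, was then added until day 3 (72 h). Chromatin was fixed for 45 min with a protein cross-linker and for 10 min with formaldehyde, and read as single ends of 76 bp. The groups differ in the antibody (a Millipore reagent for LEF1, a Santa Cruz goat reagent for TCF7L1), so a difference between factors and a difference between antibodies cannot be told apart. The other conditions of the series were naive ESC kept in 2i medium, and SOX2-ON and SOX2-OFF cells, in which endogenous Sox2 was ablated and a Sox2 transgene at the Hprt locus was or was not switched on with doxycycline during the same differentiation. SOX2-ON and SOX2-OFF thus rest on a line with a changed Sox2 gene, and CEpiLC and naive ESC on its parent. Peak lists hold no expression values, so the identity of the cells was not checked against marker transcripts.

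TCF/LEF proteins contain an HMG box that bends DNA at the sequence CTTTGA followed by A or T. In the textbook view, they repress target genes together with TLE co-repressors when β-catenin is scarce and activate them when β-catenin accumulates. LEF1 is known mainly as an activator and is itself a WNT target. TCF7L1 is known mainly as a repressor, which restrains pluripotency genes in embryonic stem cells.

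ChIP-seq gives, for each library, a list of peaks with their position, their summit and the fold of signal over local background. The LEF1 lists held 4443, 16518 and 20451 peaks in replicates 1, 2 and 3. The TCF7L1 lists held 1628, 230001 and 74815 peaks. The log10 number of peaks was 4.06 ± 0.36 for LEF1 and 4.48 ± 1.13 for TCF7L1 (SD, n = 3 each), and the difference did not exceed the spread between replicates (−0.42, exact two-sided permutation p = 0.5). With 3 against 3 libraries this test cannot go below 0.1, and read depth is unknown. Because of these lengths, each list was shortened to its 1626 peaks with the highest −log10 p-value, the length of the shortest list on the nuclear chromosomes. In the shortened lists the median fold was 11.2, 16.0 and 17.0 for LEF1 and 8.25, 13.7 and 11.8 for TCF7L1.

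The library of TCF7L1 replicate 1 stood apart from the other 5. Its median peak width was 51.5 bp, less than the length of a read, against 293 to 408.5 bp for the shortened lists of the other libraries. Its shortened list was its whole list and reached down to a −log10 p-value of 5.59, whereas the others stopped at 14.7 or higher. It also carried 13 peaks over exons of Tcf7l1. LEF1 replicate 1 carried 10 such peaks over Tcf7l1 and 6 over Tfap2c among its 1626. The shortened lists of the other 4 libraries had none over either gene, and their full lists had 3 to 6 over Tcf7l1. No site of the classes described below overlapped an exon of these genes. The results are therefore given with all 6 libraries and with the 5 that remain without TCF7L1 replicate 1, at 4443 peaks each.

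Among their strongest peaks, LEF1 and TCF7L1 were found largely at the same places. At 1626 peaks, between 55.8% and 63.3% of the peaks of a LEF1 library overlapped a peak of TCF7L1 replicate 2 or of replicate 3. TCF7L1 replicates 2 and 3 overlapped each other at 61.7% and 61.9% of their peaks, and LEF1 libraries each other at 67.7% to 71.9%. At 4443 peaks the same LEF1-TCF7L1 pairs overlapped at 39.9% to 44.5%. Within LEF1 it was then 61.3% to 63.1%, and between TCF7L1 replicates 2 and 3 36.8% and 36.9%. The Jaccard index, the shared base pairs over the union, was 0.42, 0.41 and 0.48 within LEF1. It was 0.37 between TCF7L1 replicates 2 and 3, and 0.32 to 0.39 between those libraries and LEF1. Each LEF1 pair was thus above every LEF1-TCF7L1 pair, whereas the TCF7L1 pairs were not. The pairs with TCF7L1 replicate 1 lay between 0.13 and 0.22.

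**Figure D1:**
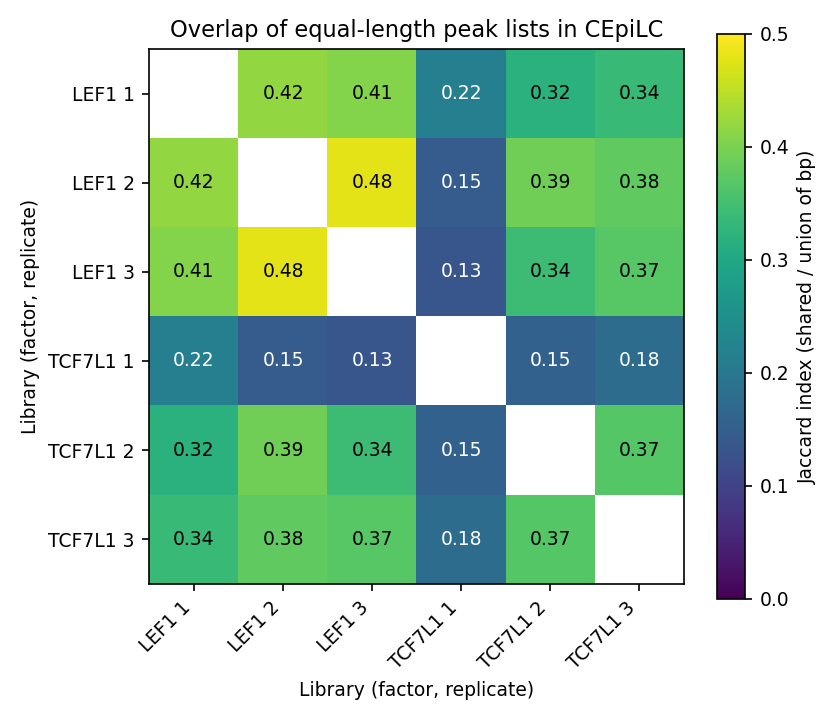
Jaccard index, on a colour scale from 0 to 0.5, for each pair of the 6 libraries, at 1626 peaks each. LEF1 pairs reach 0.41 to 0.48, TCF7L1 replicates 2 and 3 lie at 0.32 to 0.39 with the LEF1 libraries and at 0.37 with each other, and TCF7L1 replicate 1 is at or below 0.22 with every library.

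Averaged over pairs, the index was 0.33 within and 0.29 between factors, a difference of 0.042 (exact one-sided permutation p = 0.1, the smallest that 10 splits allow). In the 5 libraries it was 0.39 within LEF1, 0.22 within TCF7L1 and 0.26 between them. Without LEF1 replicate 2 or LEF1 replicate 3 the difference turned to −0.010 and −0.018.

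In 5 of the 6 libraries the overlap was nearly complete among the strongest peaks and thinned out down the list. Of the first 100 peaks of each LEF1 library, 96, 100 and 100 were met by 2 or more of the 3 full TCF7L1 lists. Of the first 100 peaks of each TCF7L1 library, 93, 100 and 100 were met by 2 or more full LEF1 lists. In ranks 1001 to 1626, the share was 72.8% to 78.4% for LEF1, and 79.7% and 82.3% for TCF7L1 replicates 2 and 3. In ranks 1627 to 4443 it was 39.2% to 43.0% for LEF1, and 28.8% and 28.7% for TCF7L1 replicates 2 and 3. TCF7L1 replicate 1 had no such order, with 47.5% in ranks 101 to 500, 49% in ranks 501 to 1000 and 80.8% in ranks 1001 to 1626.

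Merging the 6 shortened lists gave 3829 sites. Of these, 439 (11.5%) had a peak in all 6 libraries and are called shared. Sites found with LEF1 only, in 3 of 3 LEF1 lists and 0 of 3 TCF7L1 lists, numbered 93 (2.43%). Sites found with TCF7L1 only, by the reverse rule, numbered 12 (0.313%). A further 271 sites had all 3 LEF1 libraries and 2 of 3 for TCF7L1, and 1255 sites had a single TCF7L1 library and no LEF1. In the 5 libraries at 4443 peaks the 3 classes held 1181 (10.2%), 488 (4.24%) and 92 (0.798%) of 11522 sites, in the same order. With the same 5 libraries at 1626 peaks they held 627, 105 and 104 sites. LEF1 only and TCF7L1 only sites were then nearly equal in number.

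**Figure D2:**
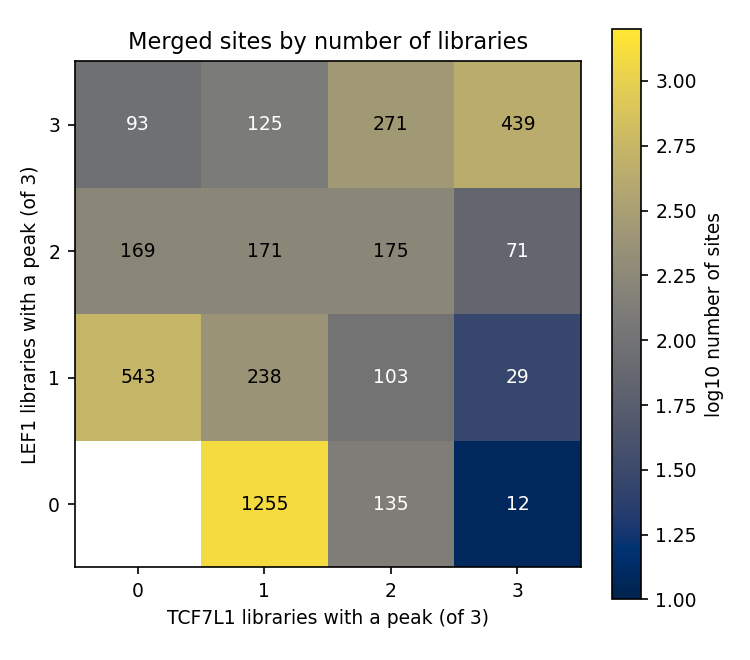
Number of merged sites, on a log10 colour scale, by how many of the 3 LEF1 libraries (vertical) and of the 3 TCF7L1 libraries (horizontal) had a peak. The corner with all 6 libraries holds 439 sites, the corner with LEF1 alone 93 and the corner with TCF7L1 alone 12.

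Most separate sites had a lower-ranking peak of the other factor. Of the 93 LEF1 only sites, 80 had a peak further down the full list of TCF7L1 replicate 2 and 70 in that of replicate 3, at median folds of 6.71 and 6.18. In the LEF1 libraries their median folds were 10.2, 14.5 and 15.5. Only 6 of the 93 were absent from every full TCF7L1 list. All 12 TCF7L1 only sites had a peak in the full list of LEF1 replicate 3, 10 had one in replicate 2 and 7 in replicate 1. None of the 12 was absent from the LEF1 lists. In the 5 libraries, 90 of the 488 LEF1 only sites had no peak in the full TCF7L1 lists (67.8% had one in replicate 2 and 52.5% in replicate 3), and 17 of the 92 TCF7L1 only sites had none in the full LEF1 lists. A longer list makes such a finding easier, and the TCF7L1 lists 2 and 3 were the longest of the 6.

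Selected sequences around the summits show what the classes looked like. Each is the plus strand of GRCm38, 101 bp centred on the summit of the library with the best rank, with the TCF word (CTTTGAA or CTTTGAT, or its reverse complement) in capitals. The sites nearest to Foxb1 and upstream of Sp5, a transcription factor induced by WNT, were shared. The site upstream of T, the mesoderm gene Brachyury, had 2 LEF1 and all 3 TCF7L1 libraries, and the intronic site in Cdx2, a caudal determinant, had all 3 LEF1 libraries and TCF7L1 replicate 1. The Ttc8 and Aprt sites were LEF1 only, and the Slc35g2 and Nodal sites TCF7L1 only.
Foxb1, chr9:69668851-69668951: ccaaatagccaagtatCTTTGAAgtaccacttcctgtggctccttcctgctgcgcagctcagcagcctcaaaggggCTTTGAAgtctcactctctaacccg
Sp5, chr2:70472122-70472222: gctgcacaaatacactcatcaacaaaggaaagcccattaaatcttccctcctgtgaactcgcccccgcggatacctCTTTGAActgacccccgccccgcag
T, chr17:8433993-8434093: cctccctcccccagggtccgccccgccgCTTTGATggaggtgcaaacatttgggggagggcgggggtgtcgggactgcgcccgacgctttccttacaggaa
Cdx2, chr5:147304959-147305059: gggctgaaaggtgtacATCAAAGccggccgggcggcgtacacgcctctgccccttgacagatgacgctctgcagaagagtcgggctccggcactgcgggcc
Ttc8, chr12:99084318-99084418: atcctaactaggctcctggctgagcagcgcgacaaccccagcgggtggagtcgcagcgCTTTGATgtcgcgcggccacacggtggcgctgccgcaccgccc
Aprt, chr8:122575051-122575151: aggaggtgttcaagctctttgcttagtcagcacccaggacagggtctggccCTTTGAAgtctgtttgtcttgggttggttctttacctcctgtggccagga
Slc35g2, chr9:100581914-100582014: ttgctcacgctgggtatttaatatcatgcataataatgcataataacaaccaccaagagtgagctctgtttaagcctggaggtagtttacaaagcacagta
Nodal, chr10:61415988-61416088: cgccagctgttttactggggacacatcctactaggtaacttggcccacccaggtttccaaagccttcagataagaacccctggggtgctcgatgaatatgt

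The 6 shared sites with the lowest worst rank over the 6 libraries had folds of 23.6 or more in every library. The site at chr9:69668381-69669597, intergenic and 92039 bp from the start of Foxb1, ranked 1, 1 and 2 with LEF1 and 101, 3 and 3 with TCF7L1. Its folds were 54.3, 131 and 114 with LEF1, and 26.0, 98.2 and 84.2 with TCF7L1. The site at chr14:22143692-22144655 in an intron, 124334 bp from the start of Lrmda, ranked first and second in TCF7L1 replicates 2 and 3, with folds of 137 and 120. Both are far from a promoter and had a peak in 59 and 60 of the 60 lists of the series. The remaining 4 sites lay next to Ybx3, 2510009E07Rik, Fam227b and Zfp703. Those at Ybx3 and Fam227b held no TCF word within 100 bp of the summit and were repeat-masked over 57.2% and 56.2% of that window.

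Sites that recur in nearly every library made up a large share of the shared class. Of the 439 shared sites, 193 had a peak in 55 or more of the 60 deposited lists of all 5 proteins and 4 conditions, and 26 had one in all 60. Among the LEF1 only sites the number was 3 of 93, and among the TCF7L1 only sites 0 of 12. The share over all 3829 sites is not given, so these counts cannot be set against it. A shared site also has at least 6 of the 60 lists by definition. The TCF word was present at 77.2% of the 193 and at 73.2% of the other 246 shared sites, and 20 of the 193 were mostly repeat-masked. Without the recurrent sites the classes held 246, 90 and 12 sites.

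The 6 named LEF1 only sites were those absent from every full TCF7L1 list. The site at chr14:63758059-63758748, in an intron and 36446 bp from the nearest gene start, that of Xkr6, had folds of 17.0, 23.7 and 28.1. The site at chr9:87021400-87021998, 209 bp upstream of Cyb5r4, had folds of 16.6, 18.4 and 23.9. The site at chr8:122574879-122575389 lay 388 bp inside Aprt, the adenine salvage enzyme, with folds of 10.3, 19.6 and 29.4. The other 3, near Plcb4, Olfr221 and Ttc8, had folds of 8.45 to 19. None of the 6 was a SOX2 site, and 3 of the 6 held a TCF word within 100 bp of the summit.

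The 6 named TCF7L1 only sites all had LEF1 peaks at lower ranks. At chr9:100581773-100582241, 10874 bp from Slc35g2, the folds with TCF7L1 were 9.0, 27.2 and 17.3, and those with LEF1 were 7.36, 9.37 and 8.90. The ranks there were 696, 202 and 445 with TCF7L1, against 2064, 2325 and 2821 with LEF1. At chr10:61415686-61416182, 1934 bp upstream of Nodal, a TGF-β family ligand of the early streak, the ranks were 1379, 440 and 1020 with TCF7L1 and 2611, 2923 and 3501 with LEF1. TCF7L1 replicate 1 had a fold of 5.66 at this site, below the 6.60, 8.27 and 7.66 of the LEF1 libraries. At 4443 peaks the Slc35g2 and Nodal sites both had a peak in all 3 LEF1 lists. The other 4 lay nearest to Mcf2l, Rif1, Ly86 and Hes1, with folds of 5.33 to 19.8 for TCF7L1 and of 5.4 to 9.43 for LEF1. Of the 6, 5 were SOX2 sites of CEpiLC, all 6 were β-catenin sites, and only the Ly86 site held a TCF word.

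The classes differed in what else was at the site. A CEpiLC SOX2 site (a peak in at least 2 of 3 SOX2 lists) was present at 92.7% of the shared, 43.0% of the LEF1 only and 91.7% of the TCF7L1 only sites. The share of β-catenin sites was 97.9%, 66.7% and 100%. TCF7L2, another TCF/LEF family member, was present at 88.4%, 19.4% and 16.7%. Over all 3829 sites the shares were 50.9% for SOX2, 58.4% for β-catenin and 24.6% for TCF7L2, nearer to the LEF1 only than to the shared class. Promoters, summits within 1000 bp of the start of a protein-coding transcript, made up 7.74% of the shared and 19.4% of the LEF1 only sites, and 2 of the 12 TCF7L1 only sites, against 9.35% of all sites. Libraries, not sites, are the replicates here, so these shares are given without a test.

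**Figure D3:**
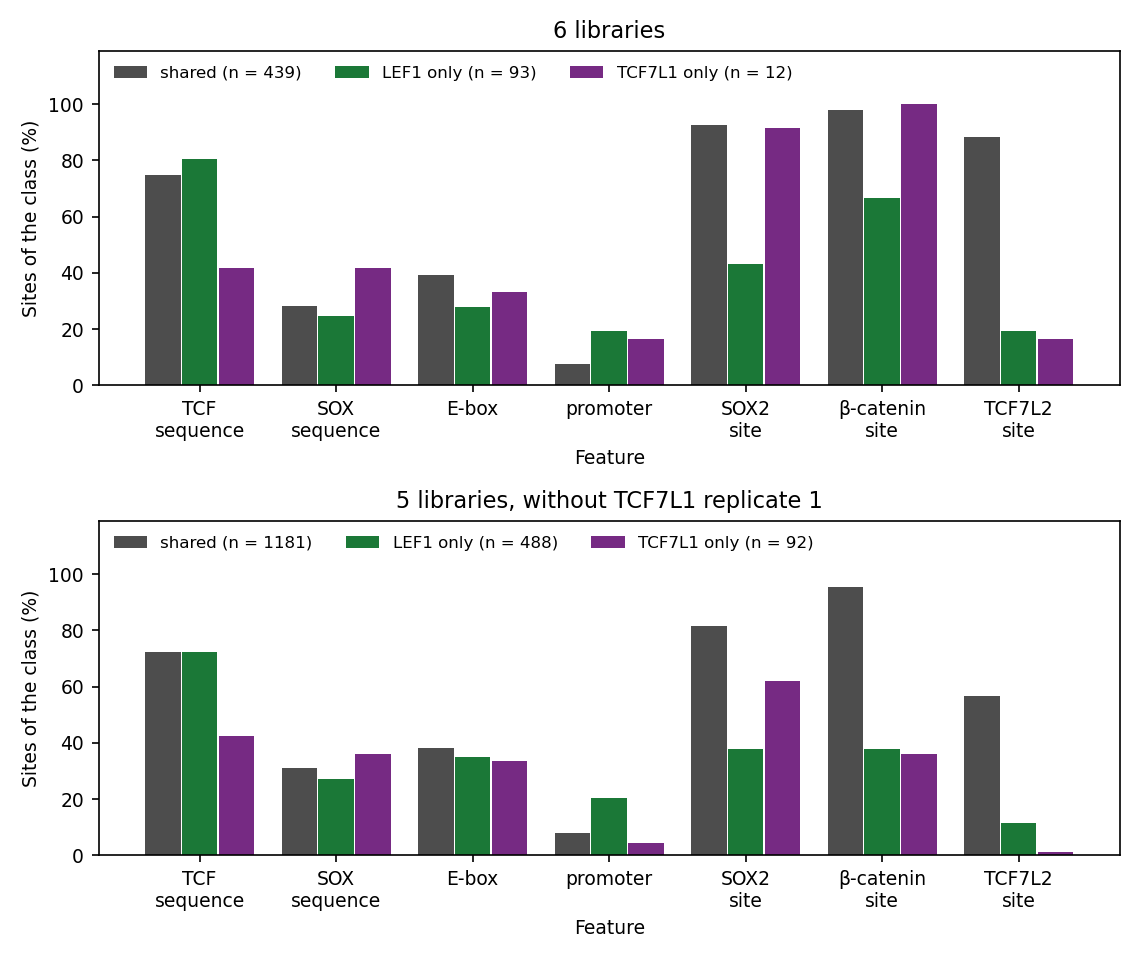
Percentage of the sites of each class (bars, from 0) with a feature, for the 6 libraries (top) and without TCF7L1 replicate 1 (bottom). In the top panel LEF1 only sites have the lowest share of SOX2 sites (43.0%), and both separate classes have a TCF7L2 share (19.4% and 16.7%) far below that of shared sites (88.4%), while the TCF word is present at 80.6% of LEF1 only and 74.9% of shared sites.

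Shared sites are stronger, so the shares were also read at like rank. Among sites whose worst LEF1 rank lay between 1001 and 1626, SOX2 sites were 90.6% of 85 shared and 45.1% of 71 LEF1 only sites. The promoter shares were 8.24% and 16.9%, and the TCF word shares 70.6% and 83.1%. Without TCF7L1 replicate 1, the shares of SOX2 sites between ranks 2001 and 3000 were 68.2% of 173 shared and 34.3% of 137 LEF1 only sites, with promoter shares of 8.09% and 23.4%. Without that library the TCF7L1 only class (92 sites) was at SOX2 sites in 62.0%, at β-catenin sites in 35.9% and at a TCF7L2 site in 1 of 92. The shared class was at 81.4%, 95.5% and 56.6%, and the LEF1 only class at 37.9%, 37.9% and 11.5%. Over all 11522 sites the shares were 32.9%, 26.4% and 10.7%, and 13.5% were at promoters. For SOX2 and TCF7L2 the LEF1 only class was thus near the share of all sites.

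The TCF word was present within 100 bp of the summit at 74.9% of the shared, 80.6% of the LEF1 only and 5 of the 12 TCF7L1 only sites. Over all 3829 sites it was present at 53.4%. In windows of the same size 5000 bp away on both sides it was present at 7.40%, 8.60% and 4.17%. In the 5 libraries the shares were 72.2%, 72.3% and 42.4%, against 42.5% of all sites and 6.52% to 8.68% in the distant windows. The octamer ATTTGCAT, bound by OCT4, was present at 3.64% of the shared and 1.08% of the LEF1 only sites, and at 1 of the 12 TCF7L1 only sites. Over all sites it was present at 3.50%, close to the shared class. In the distant windows of the 3 classes it was present at 1.48%, 1.61% and 0%.

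Per library, the word was present in 65.9%, 70.2% and 70.4% of the 1626 LEF1 peaks and in 38.7%, 62.9% and 62.6% of the TCF7L1 peaks. Every LEF1 library was above every TCF7L1 library, by 14.1 percentage points on average (68.8 ± 2.5 against 54.7 ± 13.9%, SD, n = 3 each, exact two-sided permutation p = 0.1, adjusted p = 0.275 over 11 measures). Without TCF7L1 replicate 1, at the same length, the difference was 6.08 points. At 4443 peaks it was 21.8 points, with 60.2% to 63.8% for LEF1 and 39.3% and 40.2% for TCF7L1. Where the word occurred within 250 bp, its median distance to the summit was 21 to 27 bp for LEF1, 41 bp for TCF7L1 replicate 1 and 25 bp for replicates 2 and 3.

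The E-box, CAGCTG or CAGGTG, served as a check on the name TCF3. It was present in 35.7%, 36.8% and 35.8% of the LEF1 peaks and in 29.3%, 36.7% and 38.5% of the TCF7L1 peaks, above 19.9% to 22.0% in the distant windows. The groups overlapped (difference 1.25 points, exact permutation p = 0.9, adjusted p = 0.9), and without TCF7L1 replicate 1 the difference turned to −1.50 points at 1626 peaks, while at 4443 peaks it was 1.29 points. SOX words (CATTGT or CTTTGT) were present in 26.0% to 31.2% of LEF1 and 29.7% to 33.3% of TCF7L1 peaks, near the 25.4% to 27.7% of the distant windows. The T word GGTGTG was present in 13.3% to 15.1% of LEF1 and 15.2% to 16.7% of TCF7L1 peaks, without overlap (difference −1.46 points, exact permutation p = 0.1, adjusted p = 0.275), and in 12.6% to 14.0% of the distant windows. In the 5 libraries at 4443 peaks the groups overlapped and the difference was −0.24 points (exact permutation p = 1). The CDX words (TTTATTG or TTTATGG) and the octamer overlapped between the groups.

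LEF1 peaks were also more often at promoters, in 9.59%, 10.2% and 10.4% of peaks against 5.6%, 7.5% and 8.67% for TCF7L1. The groups did not overlap (difference 2.81 points, exact permutation p = 0.1, adjusted p = 0.275). Without TCF7L1 replicate 1 at 4443 peaks, the values were 13.7%, 13.9% and 14.1% against 9.77% and 11.3%. TCF7L2 sites were met by 45.5% to 47.4% of LEF1 and by 35.5%, 44.5% and 44.1% of TCF7L1 peaks, also without overlap of the groups and with the same p. That difference of 4.98 points fell to 2.05 without TCF7L1 replicate 1, to 0.22 with all deposited peaks and to −1.84 at 5000 peaks. The shares with SOX2 and β-catenin overlapped between the factors (differences of 2.54 and 9.39 points, exact permutation p = 0.9 and 0.7, adjusted p = 0.9). Both turned negative without TCF7L1 replicate 1 at 1626 peaks, to −5.31 and −1.17 points. At 4443 peaks without it they were 9.09 and 9.71 points.

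At the shared sites the summits coincided. The median distance between summits was 17 to 19 bp between LEF1 libraries, 20 bp between TCF7L1 replicates 2 and 3, and 18 to 21 bp between those and LEF1. With TCF7L1 replicate 1 it was 32 to 34 bp, for LEF1 and TCF7L1 partners alike. The mean over pairs was 23.0 bp within and 23.8 bp between factors, a difference of 0.78 bp (exact one-sided permutation p = 0.1, the smallest possible). Leaving out LEF1 replicate 1, 2 or 3 turned it to −2.0, −2.42 and −1.46 bp.

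The height of the peaks was compared at 757 sites with a peak in the full lists of all 6 libraries, on log2 folds brought to the same distribution. Limma called 0 sites at an adjusted p under 0.05 (0.0% in either direction), and 112 had an unadjusted p under 0.05. It also called 0 with median centring and with −log10 p in place of the fold. The replicate numbers were taken to pair the libraries. Deviations from the factor mean correlated at 0.45, 0.54 and 0.31 between the same-numbered libraries. Between other-numbered libraries the correlations ran from −0.57 to 0.21. The pairing was thus judged on the same values that the block then tested. Deviations within a factor also cancel out at each site, so positive same-numbered correlations bring negative ones among the others by construction. With the replicate as a block, limma called 11 sites higher with LEF1 (1.45%) and 19 higher with TCF7L1 (2.51%). These calls were fragile. With median centring in place of quantile normalization the block gave 0 calls (157 at an unadjusted p under 0.05), without pair 2 it gave 0 and 2, without pair 3 it gave 1 and 1, and without pair 1 it gave 35 and 46.

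The called sites differed in sequence. All 11 sites higher with LEF1 held a TCF word and none held a SOX word or an octamer, whereas of the 19 higher with TCF7L1, 6 held a TCF word, 10 a SOX word and 5 an octamer. All 19 were SOX2 sites, against 6 of the 11. Over all 757 sites the shares were 66.3% for the TCF word, 32.0% for the SOX word, 5.81% for the octamer and 86.5% for SOX2 sites. Among all sites with a difference of at least 1 on the log2 scale, the TCF word was present at 16 of 16 and at 6 of 21. Without TCF7L1 replicate 1 it was present at 18 of 33 sites higher with LEF1 (54.5%) and at 15 of 32 higher with TCF7L1 (46.9%), so this contrast rested mainly on that library. The octamer (6.06% and 21.9%) and SOX2 sites (42.4% and 100%) still differed in the same direction without it.

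**Figure D4:**
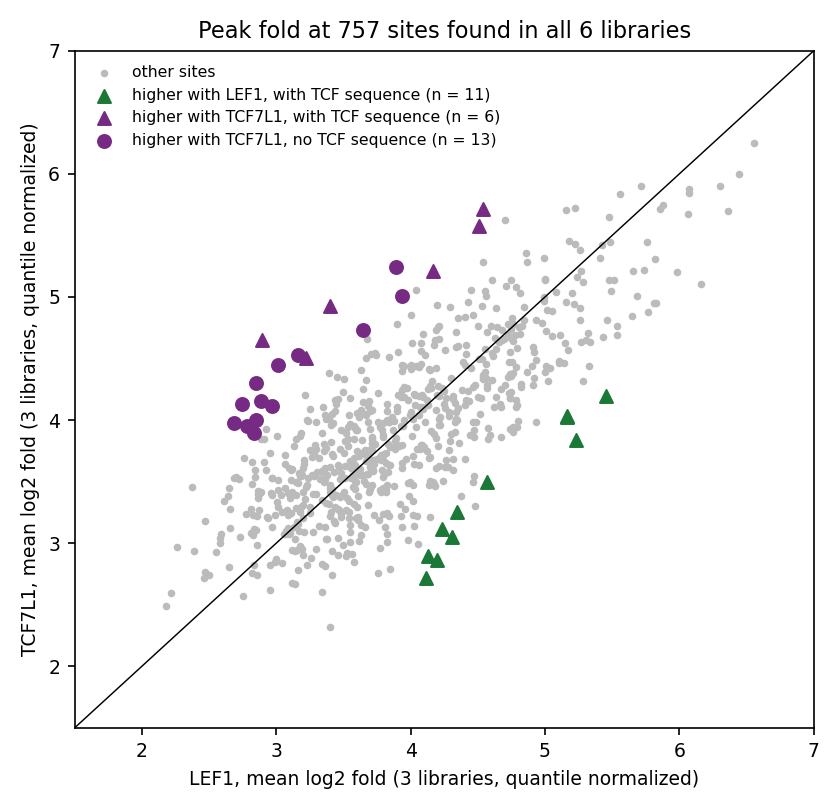
Mean log2 fold over the 3 libraries of each factor after quantile normalization, at 757 sites (points), with the line of equality. Coloured points are the calls of limma with the replicate block: all 11 sites higher with LEF1 (green triangles) hold a TCF word, against 6 of the 19 higher with TCF7L1 (purple triangles; circles hold none).

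The sequences of 4 of these sites follow, again with TCF words in capitals, the first pair higher with LEF1 and the second with TCF7L1. Fzd7 and Lmod3 are among the 6 of 19 that hold a TCF word. Slc35g2, printed above, is among the 13 that hold none.
Tln2, chr9:67511400-67511500: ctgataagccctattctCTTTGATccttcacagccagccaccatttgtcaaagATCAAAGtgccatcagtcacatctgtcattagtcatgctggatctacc
Gm572, chr4:148686553-148686653: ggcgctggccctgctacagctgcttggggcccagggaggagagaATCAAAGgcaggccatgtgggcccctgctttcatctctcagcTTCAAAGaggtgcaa
Fzd7, chr1:59376578-59376678: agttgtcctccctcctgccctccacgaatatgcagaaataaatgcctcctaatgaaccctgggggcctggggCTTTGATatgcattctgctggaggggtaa
Lmod3, chr6:97278387-97278487: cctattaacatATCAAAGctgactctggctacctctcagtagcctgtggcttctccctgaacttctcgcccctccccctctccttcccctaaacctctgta

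At the Tln2 site, an intronic site at chr9:67511073-67511653, 27942 bp from the gene start, the deposited folds were 16.0, 28.0 and 24.4 with LEF1 and 4.96, 6.67 and 8.41 with TCF7L1. The difference was 1.33 ± 0.28 on the log2 scale (SE, limma adjusted p = 0.106, and 0.0210 with the block). At the site chr19:6950518-6951027, in a UTR and 8297 bp from the start of Bad, it was 1.40 ± 0.28 (limma adjusted p = 0.106, and 0.0167 with the block), with folds of 13.3, 26.0 and 27.4 against 4.59, 7.04 and 6.33. The Gm572 site differed by 1.13 ± 0.26 (limma adjusted p = 0.127, and 0.0378 with the block). In each of the 3 the LEF1 values, after normalization, lay above all TCF7L1 values. Such separation was found at 81 of all 757 sites, and these 3 were picked by their adjusted p.

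In the other direction, the intergenic site chr1:59376169-59376930, 105796 bp from Fzd7, which encodes a WNT receptor, had folds of 6.26, 13.2 and 8.61 with LEF1 and of 12.1, 39.7 and 17.6 with TCF7L1. The difference was −1.76 ± 0.35 (SE, limma adjusted p = 0.106, and 0.0160 with the block). At the Slc35g2 site it was −1.45 ± 0.26 (limma adjusted p = 0.106, and 0.0167 with the block). At the Lmod3 site it was −1.28 ± 0.25 (limma adjusted p = 0.106, and 0.0210 with the block). All 3 were SOX2 sites, and at each every TCF7L1 value was above every LEF1 value after normalization. That held at 86 of all 757 sites, and these 3 were also picked by their adjusted p.

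Most listed genes that carried LEF1 also carried TCF7L1. A gene was counted for a factor when its body or the 10 kb upstream held a peak in at least 2 of 3 lists. Of 21911 protein-coding genes, 843 (3.85%) had LEF1, 685 (3.13%) had TCF7L1 and 530 (2.42%) had both. Of 14 WNT feedback and target genes, 6 had LEF1, 6 had TCF7L1 and 5 had both. Of 13 genes for TCF/LEF proteins and their partners, the numbers were 4, 2 and 2. Of 19 caudal epiblast genes they were 10, 11 and 10, and of 19 genes of the primitive streak and mesoderm 5, 5 and 4. Of 18 pluripotency genes none had either factor by this rule, and of 14 neural and anterior genes only Nes, an intermediate filament gene, had LEF1 and none had TCF7L1. With all deposited peaks 73 of the 97 listed genes had both, against 21 at equal length. Over all protein-coding genes, 21.6% then had both and 64.1% had TCF7L1. With the 5 libraries at 4443 peaks, TCF7L1 needed 2 of 2 lists. There 31 of the 97 listed genes had both, and LEF1 was present at 48 against 32 for TCF7L1. Over all protein-coding genes the shares were 4.14% for both, 9.52% for LEF1 and 5.14% for TCF7L1.

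The WNT feedback genes Axin2, a scaffold of the β-catenin destruction complex, and Sp5, a transcription factor, had peaks of all 6 libraries. At the promoter site chr11:108920199-108921836, 940 bp into Axin2, the folds were 14.2, 13.7 and 13.1 with LEF1 and 5.11, 7.70 and 6.71 with TCF7L1. Each LEF1 value was above each TCF7L1 value, but these folds were not normalized. The median folds of the shortened lists were 11.2, 16.0 and 17.0 for LEF1 and 8.25, 13.7 and 11.8 for TCF7L1. At chr2:70474425-70475422, over the start of Sp5, the folds were 29.9, 35.0 and 22.0 against 15.9, 41.9 and 24.6, and the groups overlapped. Upstream of Lef1, at chr3:131105519-131106349, LEF1 was in the shortened list of all 3 libraries (folds of 11.3, 13.3 and 9.34) and TCF7L1 in that of replicate 3 (11.8). Tcf7 had LEF1 in 2 lists and TCF7L1 in none, with best ranks of 2066 and 3124 for TCF7L1 replicates 2 and 3.

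Of the caudal genes, 6 had all 6 libraries: Cdx1, Wnt5b, Evx1, Gbx2, Hoxb1 and Hoxb9. Apart from Cdx1, these names and those of Tcf7 and Nes were chosen after their values were seen. Gbx2, a homeobox gene, had best ranks of 6, 6 and 13 with LEF1 and of 227, 38 and 39 with TCF7L1. Over the start of Cdx1 the folds were 30.1, 34.2 and 36.5 with LEF1 and 15.3, 51.6 and 46.2 with TCF7L1, and the groups overlapped. In Cdx2, 2 neighbouring intronic sites had unlike counts. The one at chr5:147304706-147305286 had 3 LEF1 libraries and 1 TCF7L1 library, with folds of 9.76, 18.2 and 16.0 against 5.71, 8.13 and 6.30. The one at chr5:147304114-147304612 had 1 LEF1 library and 2 of TCF7L1, with folds of 9.78, 9.76 and 9.28 against 8.42, 17.5 and 7.36. The first holds a TCF word near its summit and the second does not. At Meis3, another homeobox gene, 2 libraries of each factor had a peak, and Fgf8 had none of either in the shortened lists.

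Of the 97 genes, Nodal and Wnt8a were the ones with TCF7L1 in 3 of 3 and LEF1 in 0 of 3 lists, and no gene showed the reverse. The share of all protein-coding genes by this rule is not given, so these counts cannot be set against it. By the rule of 2 of 3 lists, 155 of the 21911 genes had TCF7L1 without LEF1 and 313 the reverse. Of the 97 listed genes, 3 and 5 did. With the 5 libraries at 4443 peaks, 1 listed gene had TCF7L1 without LEF1 and 17 had the reverse. Over all protein-coding genes these counts were 219 and 1179. Wnt8a, a WNT ligand, had best ranks of 1313, 590 and 1108 with TCF7L1 and of 3803, 1955 and 2824 with LEF1. At 4443 peaks both Nodal and Wnt8a had LEF1 in 3 of 3 lists. In the full lists both genes had peaks of all 6 libraries. T had a promoter site with 2 LEF1 and 3 TCF7L1 libraries and folds of 7.03, 17.1 and 20.5 against 5.53, 14.9 and 9.85. Klf2, a pluripotency gene, had no LEF1 peak in any full list and TCF7L1 peaks at ranks 50066 and 11317 in replicates 2 and 3.

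The classes were then read in the lists of the other conditions, cut to 4443 peaks for LEF1 and 1626 for TCF7L1. In naive ESC, TCF7L1 was at 45.6 ± 2.6% of the shared, 8.2 ± 2.2% of the LEF1 only and 47.2 ± 9.6% of the TCF7L1 only sites (SD, n = 3 libraries each). In SOX2-OFF cells these shares were 87.2 ± 5.4%, 21.9 ± 6.5% and 63.9 ± 9.6%, and in SOX2-ON cells 50.8 ± 15.1%, 6.8 ± 5.4% and 33.3 ± 16.7%. Over all 3829 sites the TCF7L1 shares were 15.5%, 32.5% and 16.6% in naive, SOX2-OFF and SOX2-ON cells. With the classes of the 5 libraries, the shares of shared, LEF1 only and TCF7L1 only sites were 30.0%, 7.51% and 18.5% in naive ESC. They were 65.7%, 8.27% and 34.8% in SOX2-OFF and 32.2%, 5.12% and 13.4% in SOX2-ON cells, so that TCF7L1 only sites were then below shared sites in all 3 conditions. LEF1 was at 77.1 ± 8.1% of the shared and 31.5 ± 7.8% of the LEF1 only sites in SOX2-OFF cells, and at 53.2 ± 4.5% and 15.1 ± 2.2% in SOX2-ON cells. Over all sites LEF1 was at 28.0% and 17.6%, close to the LEF1 only class. With the classes of the 5 libraries the LEF1 only shares were 12.2% and 9.36%, against 11.1% and 8.04% of all 11522 sites. It was at 11.1 ± 12.7% of the TCF7L1 only sites in SOX2-OFF cells, that is at 0, 1 and 3 of 12. The naive LEF1 libraries differed widely, with 8.7%, 62.4% and 31.0% of the shared sites. Shares are comparable between classes within the same lists and not between LEF1 and TCF7L1, whose lists differ in length.

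**Figure D5:**
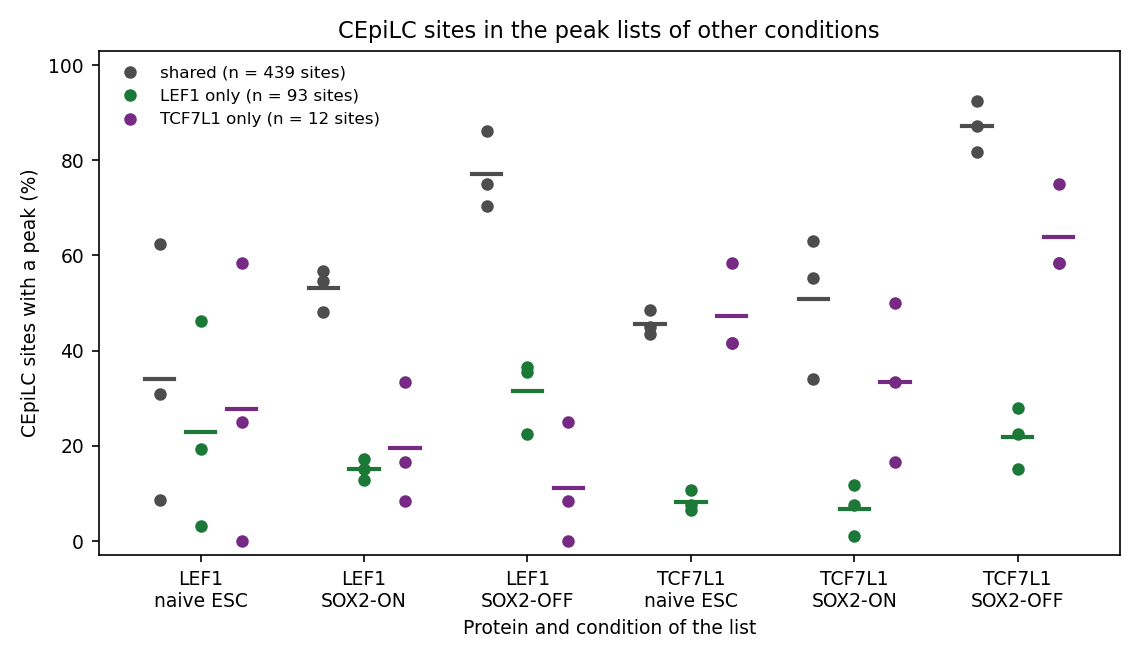
Percentage of the CEpiLC sites of each class with a peak in each library (points, bar for the mean of 3) of LEF1 and TCF7L1 in the other conditions. Shared sites are highest in SOX2-OFF cells (means of 77.1% and 87.2%), and TCF7L1 in naive ESC meets 45.6% of the shared, 47.2% of the 12 TCF7L1 only and 8.2% of the LEF1 only sites, against 15.5% of all sites (30.0%, 18.5% and 7.51% with the classes of the 5 libraries, not plotted).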

How the data were processed

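Peak lists of 3 LEF1 and 3 TCF7L1 ChIP-seq libraries of CEpiLC, which the labels call independent biological replicates, were analysed, and the lists of the other libraries were read at their sites. The authors aligned single-end reads to mm10 with BWA in the nf-core/chipseq workflow and called narrow peaks per library with MACS2 (per the labels' processing notes) at a q-value under 0.05, without pooling replicates. Which input served which library is not given in the sources used here. The deposited columns are a score, the fold (a ratio over local background), a −log10 p-value, a −log10 q-value and the summit. The deposited score was not used further. The files hold no read counts, so depth is unknown and intervals for counting error cannot be given.

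Lists were ranked by −log10 p and shortened to 1626 peaks, or to 4443 without TCF7L1 replicate 1, and merged into sites at an overlap of at least 1 bp. Lists of other proteins were shortened to 20000 (SOX2), 3423 (β-catenin) and 4131 (TCF7L2) peaks. Sequence words were counted on both strands within 100 bp of the summit (201 bp windows), with windows 5000 bp away as background. GENCODE vM21 gave the genes and the GRCm38.p6 assembly of RefSeq the sequence. Differences between libraries were tested by exact permutation, with Benjamini-Hochberg adjustment over 11 measures. Site strength was tested on log2 of the deposited fold, quantile normalized, with limma 3.58.1 (R 4.3.3), after a check on simulated data. Python 3.11.15, numpy 2.4.6, pandas 2.3.3 and scipy 1.17.1 were used.

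The replicate numbers of the labels were taken to pair the libraries, because deviations of same-numbered libraries from their factor means correlated at 0.45, 0.54 and 0.31. These correlations came from the values tested with the block, and other-numbered libraries gave −0.57 to 0.21. That second range is partly set by the centring on the factor means. The members, the gene lists and the tests were chosen with earlier results of these data known. Named sites were the 6 per class with the lowest worst rank (for separate sites, first those absent from the full lists of the other factor) and the 3 per direction with the lowest adjusted p in limma. Sites on 1 chromosome and on exons of Tfap2a, Tfap2c, Tcf7l1 and Tcf7l2 were left out when these sites were picked. Listed genes on that chromosome, and the sites in them, could still be named. Named genes were those nearest to the picked sites, those with 3 of 3 libraries of 1 factor and 0 of 3 of the other, and Axin2, Lef1, Sp5, T, Cdx2, Cdx1, Fgf8, Klf2, Nodal and Meis3. The alternatives were other list lengths, rankings, overlaps and windows, each library left out, and the replicate block. The alternatives chosen after seeing the data were those at 4443 peaks (apart from the site counts), the block with a pair left out, with median centring or with more sites, the removal of recurrent sites, and the left-out libraries for peak number and agreement.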

Additional observations from a re-analysis of the deposited data

Results flagged for a closer look

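Peaks on the mitochondrial sequence, outside the chromosomes compared, were found with TCF7L1 and not with LEF1. TCF7L1 replicate 2 had 15 such peaks and replicate 3 had 4. They drew attention because they lie in data outside the comparison, and the LEF1 libraries had 0 each. TCF7L1 replicate 1 had 2. The whole lists held 1628, 230001 and 74815 peaks for TCF7L1 and 4443, 16518 and 20451 for LEF1. The cause of the difference was not tested.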

How the results depend on the processing

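Of 255 values recomputed under an alternative, 195 kept their direction and call, 38 counts moved by more than 1.5 times and 22 differences changed sign; none of the per-library measures passed 0.05 in any setting, which 3 against 3 libraries cannot do. LEF1 only, TCF7L1 only and shared sites numbered 22, 3 and 73 at 500 peaks per library, 534 and 4 (LEF1 only and TCF7L1 only) at 5000, 305, 3 and 761 with all deposited peaks, and 488, 92 and 1181 at 4443 peaks without TCF7L1 replicate 1. With a −log10 q of at least 5 there were 310 LEF1 only and 0 TCF7L1 only sites, and 6 and 0 were absent from the full lists of the other factor. Without sites recurring in 55 or more lists, 246 shared sites were left. Leaving out 1 library gave 105 to 157 LEF1 only, 12 to 104 TCF7L1 only and 446 to 627 shared sites. Without TCF7L1 replicate 1 there were 105 LEF1 only and 104 TCF7L1 only sites.

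Signs changed as follows; the cause was not tested. The SOX word difference became 0.50, 0.44 and 0.81 points at 5000 peaks, with all peaks and at 4443 without TCF7L1 replicate 1, and the octamer difference 0.10, 0.29 and 0.39. The CDX difference became −0.83 with all peaks and −0.76 in 250 bp windows, and the T word difference 0.80 with all peaks. The share with SOX2 became −0.082 with peaks required in 3 of 3 libraries, and that with TCF7L2 −1.84 at 5000 peaks. Leaving out 1 library gave ranges of −1.06 to 0.016 for the log10 peak number, −0.018 to 0.107 for agreement, −1.50 to 3.09 points for the E-box, −0.42 to 1.21 for CDX words, −5.31 to 8.19 for SOX2, −1.17 to 15.7 for β-catenin, and −2.42 to 5.08 bp for the summit distance. Genes with both factors rose from 21 to 38 with 50 kb on both sides and to 73 with all peaks.

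For site strength, limma with the replicate block called 11 sites higher with LEF1 and 19 higher with TCF7L1. With the block and 1 pair left out these counts were 35 and 46 (pair 1), 0 and 2 (pair 2) and 1 and 1 (pair 3), and with peaks in at least 2 of 3 libraries 17 and 11. Without TCF7L1 replicate 1 at 4443 peaks limma called 1 site higher with LEF1. The paired exact tests of the other measures cannot go below 0.25 with 3 pairs, so the pairing could not change a call there.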
